A study of Arabidopsis thaliana with 6 samples.

Results

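The genes around the centromere of Arabidopsis chromosome 5 were taken as the entries that carry the Araport11 suffix and a locus number from AT5G28000 to AT5G35300. This rule goes by position and used no measured value. It gave 150 genes out of 31335 gene entries in the count table, of which 27650 carry the suffix. Transcripts were counted in leaves of 28-day-old plants of 2 genotypes, with 3 libraries each. The first was ddcc, mutated in DRM1, DRM2, CMT2 and CMT3, and the second was the wild type, both of the cultivar Col-0, kept on soil at 21 °C with 16 h light and 8 h dark. The mutant alleles and the number of plants behind each library are not given in the sources used here, so p-values measure only the spread between these libraries.

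The 4 mutated genes encode the enzymes that methylate cytosines outside CG dinucleotides in plants. DRM2 acts where small RNAs guide it, CMT3 acts mainly on cytosines in the CHG context and CMT2 on those in the CHH context (H is A, C or T), and both CMT enzymes bind histone H3 methylated at lysine 9. Chromatin flanking plant centromeres is rich in transposable elements (TEs), poor in genes and densely methylated in all contexts. Genes lying there are surrounded by silenced repeats, and the comparison asks which of them are transcribed differently when the non-CG methyltransferases are mutated.

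In the TAIR10.1 annotation the 150 genes span chromosome 5 from 10020653 to 13518949, a stretch of 3.50 Mb. They stand at 42.9 genes per Mb, against 263 Araport11 entries per Mb in the rest of the chromosome. The longest stretch without a member measures 440 kb and lies between AT5G30520 and AT5G32440. The reference sequence of the interval holds 47 runs of unknown bases, 10278 bases in all. Another 50 entries of the same locus range lack the suffix and are not members.

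Total counts ran from 17265251 to 18809306 in the ddcc libraries and from 15188586 to 17644256 in the wild-type libraries. The leaf label fitted its leaf and seed markers, but not both pollen markers. The 4 light-harvesting and Rubisco genes summed to 69971 to 75032 CPM (counts scaled to a common library total) in ddcc. In wild type they summed to 76216 to 80840 CPM. The 3 seed storage genes summed to at most 0.156 CPM in ddcc and 0.292 CPM in wild type. Of the pollen genes, ANX2 had no count, while ANX1 was detected in every library. Both together summed to 3.09 to 4.01 CPM in ddcc and 3.02 to 4.90 CPM in wild type. Of the mutated genes, DRM2, CMT2 and CMT3 were lower in ddcc, with log2 fold changes of −1.14, −0.46 and −1.69, and DRM1 had at most 1 count in any library.

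Most genes of the interval were silent in leaves, in both genotypes. In ddcc 79 of the 150 genes (52.7%) had 0 counts in each of the 3 libraries, and in wild type 80 (53.3%) did. Both sets shared 76 genes, which had 0 counts in all 6 libraries. Among the other 27500 Araport11 entries 21.6% were silent in ddcc and 22.3% in wild type, and among the other 6182 entries of chromosome 5 the shares were 19.9% in ddcc and 20.7% in wild type. A count of 0 limits a gene to 3 counts, equal to 0.156 to 0.172 CPM in the ddcc libraries and 0.175 to 0.197 CPM in the wild-type libraries, for counting error only. The number of genes with at least 1 count was 68, 64 and 65 in the ddcc libraries and 66, 65 and 66 in the wild-type libraries. The means of 65.7 ± 2.08 in ddcc and 65.7 ± 0.577 in wild type (SD, n = 3 each) were equal (p 1, two-sided exact permutation test over libraries, whose smallest possible p is 0.1).

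**Figure D1:**
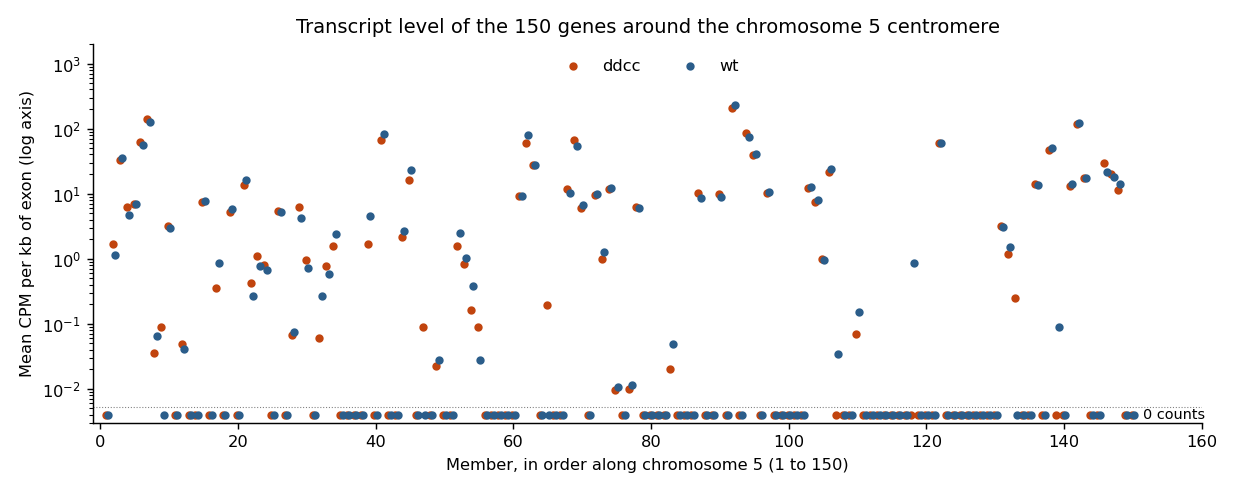
Mean transcript level of each of the 150 genes in ddcc and in wild type (n = 3 libraries each), as CPM per kb of exon on a log axis, in order along the chromosome. Points below the dotted line at the bottom had 0 counts, as 76 genes had in all 6 libraries; expressed genes stand between them, and the points of both genotypes lie close together at most of them.

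Silent genes differed from expressed ones in the annotation. Of the 76 genes without a count, 27 (35.5%) are annotated only as uncharacterized or hypothetical proteins, their median exon length is 700 bases, and 29 (38.2%) have an annotated untranslated part. Of the 54 genes with enough reads to be tested, 2 (3.70%) are uncharacterized, the median exon length is 2070 bases, and 50 (92.6%) have an untranslated part. Exon GC content was close, with medians of 41.0% and 40.6%. Genes were grouped by read counts that were not scaled for exon length, so the difference in length is partly built into the grouping. Whether the annotation of untranslated parts depends on earlier detection of a transcript was not tested. A group of 12 genes for small proteins of the defensin-like, thionin, albumin-like and ECA1 families, kinds known from seeds and reproductive organs, had 0 counts in every library of both genotypes. Within it 7 genes from AT5G34882 to AT5G34908 stand close together. They form, with AT5G34870, the longest run of neighbouring genes without a count, 8 genes over 39.8 kb. Each of these 7 genes shares more of its 31-base exon words with another of the 7 than with any other locus, between 33.8% and 79.7%. Between 46.2% and 100% of their words occur elsewhere in the genome. ANX2, a receptor kinase that keeps pollen tubes intact in their growth, and SRS8, a SHI-related gene, had no count either, while ANX1, the relative of ANX2 on chromosome 3, had 3.69 ± 0.519 CPM in ddcc and 3.71 ± 1.04 CPM in wild type (SD, n = 3 each). These product groups were drawn up after the values were seen.

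Silence was spread over the whole interval. By the first digits of the locus number, 34 of 77 genes of block AT5G28 were silent in wild type, 6 of 8 in AT5G29, 4 of 7 in AT5G30, the single gene of AT5G31, 5 of 8 in AT5G32, 8 of 14 in AT5G33, 13 of 17 in AT5G34 and 9 of 18 in AT5G35. In the inner blocks, AT5G29 to AT5G32, 16 of 24 genes (66.7%) were silent in ddcc and the same number in wild type. In the outer blocks 63 of 126 (50%) were silent in ddcc and 64 (50.8%) in wild type. Strongly transcribed genes stood inside this silent stretch: RPS1, the gene with the highest level of all members, lies near one edge of the longest stretch without a member, and AT5G32440 lies at its other edge.

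**Figure D2:**
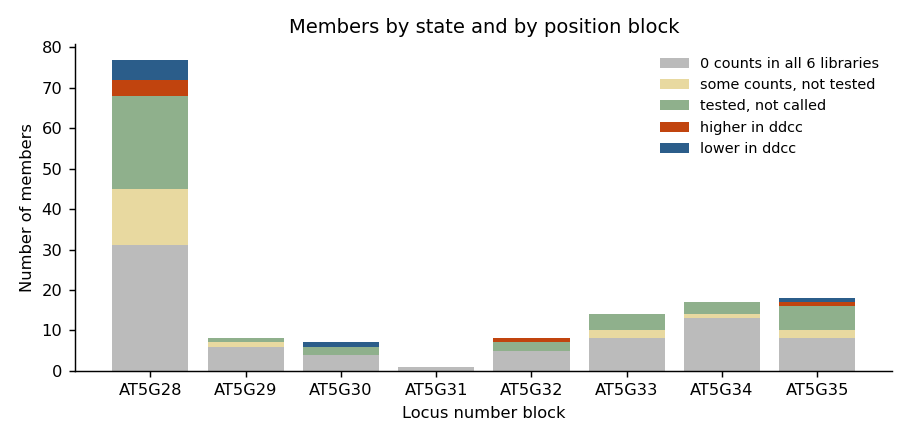
Number of genes in each locus number block, stacked by state: without a count in all 6 libraries, with some counts but too few to test, tested without a call, called higher in ddcc and called lower in ddcc. Genes without a count make up 31 of 77 genes in block AT5G28 and 13 of 17 in block AT5G34, and the 13 called genes are spread over blocks 28, 30, 32 and 35.

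Reads of near-identical copies bear on this count, since how multiply mapping reads were counted is not given in the sources used here. In 18 of the 150 genes at least 50% of the exon words occur elsewhere, 9 of them silent in wild type. Without these, 71 of 132 genes (53.8%) were silent in wild type. A duplicated segment at AT5G28320 to AT5G28460 holds several of them. There the pentatricopeptide repeat genes AT5G28370 and AT5G28460 share 98.4% and 98.8% of their words with each other, and both had 0 counts in all libraries. In all their words, 98.9% and 100% were repeated. Other genes of the same segment had counts. AT5G28340, with 100% of its words repeated, had 24, 14 and 20 in ddcc and 15, 14 and 14 in wild type. AT5G28380, with 95.7% repeated, had only 3, 2 and 1 in ddcc and the same in wild type. The less repeated AT5G28320 (94.3%) had 43 to 67 in ddcc and 26 to 44 in wild type. AT5G28400 (92.1%) had 47 to 54 in ddcc and 33 to 36 in wild type. Whether reads of AT5G28370 and AT5G28460 were left uncounted was not tested.

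Of the 80 genes silent in wild type, 4 (5%) had any count in ddcc and 2 (2.5%) had counts in every ddcc library. Among the other Araport11 entries silent in wild type, 12.8% had a count in ddcc and 1.53% had counts in every ddcc library. No gene of the interval with 0 counts in every wild-type library had 5 or more counts in each ddcc library, nor the reverse. The genes named in this and the next paragraphs were therefore chosen after their values were seen. AT5G28810 (chromosome 5, 10823356 to 10826646, plus strand), annotated as an Ulp1 protease family protein, a kind of gene often carried by plant Mutator-like transposons, had 10, 13 and 4 counts in ddcc and 0, 0 and 0 in wild type. All ddcc libraries lay above 3 counts. With wild type set to 3 counts per library, the mean ddcc level was 2.65-fold that of wild type. This bounds the wild-type side only and takes the ddcc counts, the lowest of them 4, as exact. AT5G35050 (13311036 to 13311854, minus strand), a hypothetical protein with a DUF1985 domain, had 2, 6 and 3 counts in ddcc and 0, 0 and 0 in wild type. Its ddcc counts straddle the limit set by 0 counts. AT5G28090 had 1, 2 and 0 counts in ddcc, and AT5G28560 had 1, 0 and 0, which at this depth is not distinguishable from 0.

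AT5G28810 and AT5G35050 fell short of the expression filter and were not tested with the genes that passed it. They were picked for their counts of 0 in wild type and could enter a test only through their ddcc counts, so no p is given for them. With every feature of at least 1 count tested, 8 members were higher in ddcc and 9 lower, and of all 26216 features 21.8% were called, 12.7% higher and 9.07% lower. Those members include genes that entered only through the genotype in which they had counts, so nothing is read from the numbers. Of the exon words of AT5G28810, 39.2% recur elsewhere, and 23.0% of all its words are found in AT5G45570 outside the interval, which had 0, 1 and 0 counts in ddcc and 1, 0 and 0 in wild type. AT5G28810 and AT5G35050 are among 10 members with transposon-related products (hAT transposase, Gag-Pol, reverse transcriptase, Ulp1 protease, PIF1 helicase, CCHC zinc knuckle or DUF1985). All 10 were silent in wild type, as were 53.3% of all 150 members. The other 8 had 0 counts in every ddcc library as well. This product group too was drawn up after the values were seen, so nothing is read from its numbers.

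In the opposite direction, 3 of the 79 genes silent in ddcc had a count in wild type, as had 593 of 5945 among the other Araport11 entries. AT5G34830 (12981645 to 12982497, plus strand), an uncharacterized protein gene, had 0, 0 and 0 counts in ddcc and 1, 11 and 7 in wild type. The lowest wild-type library held a single count, below the 3 counts that a count of 0 allows, so no fold is given. It too was not tested. The other pair were AT5G35110, with 0, 0 and 0 counts in ddcc and 2, 2 and 0 in wild type, and AT5G33330, with 0, 0 and 0 against 0, 0 and 1. A pseudogene without the suffix, AT5G34795, ends 10.8 kb before AT5G34830 on the same strand. It had 9, 9 and 6 counts in ddcc and 53, 30 and 52 in wild type, which puts it lower in ddcc by a log2 fold change of −2.66 with an SE of 0.33 (edgeR adjusted p 1.92e-04).

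**Figure D3:**
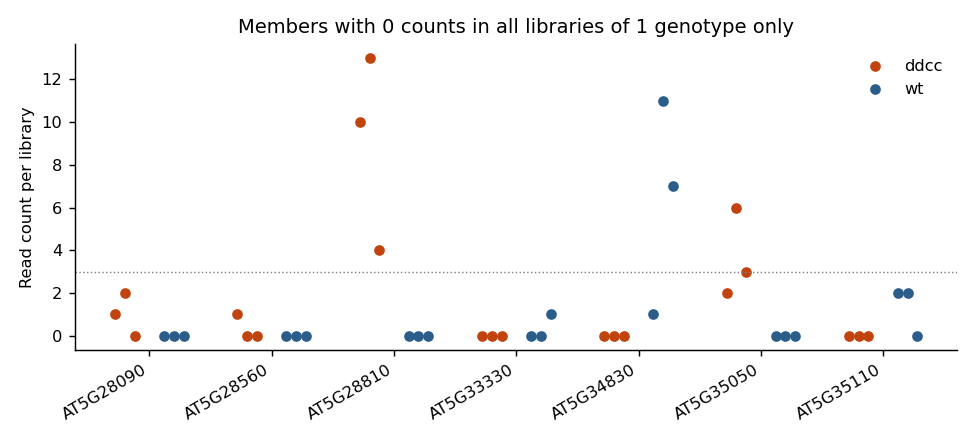
Read count in each library for the 7 genes with 0 counts in all libraries of 1 genotype only, with ddcc to the left of wild type and the dotted line at 3 counts. AT5G28810 is the single gene with every ddcc library above the line, at 10, 13 and 4 counts, and AT5G34830 has 1, 11 and 7 counts in wild type.

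The start regions of AT5G28810, AT5G35050 and AT5G34830 are shown because non-CG methylation can act there. These genes were picked for their counts and were not tested, so nothing is read from differences between their sequences. Each runs from 250 bases before to 50 bases after the RefSeq gene start in TAIR10.1, 5′ to 3′ on the gene's strand. Capitals mark CAG and CTG, the CHG sites that read as CHG on both strands. AT5G28810 lies on chr5:10823106-10823405 (plus), AT5G35050 on chr5:13311805-13312104 (minus) and AT5G34830 on chr5:12981395-12981694 (plus).
AT5G28810: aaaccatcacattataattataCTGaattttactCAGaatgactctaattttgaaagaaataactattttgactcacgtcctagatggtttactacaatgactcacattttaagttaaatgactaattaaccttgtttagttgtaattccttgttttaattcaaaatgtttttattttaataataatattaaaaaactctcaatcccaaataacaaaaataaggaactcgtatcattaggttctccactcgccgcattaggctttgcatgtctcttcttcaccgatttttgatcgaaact
AT5G35050: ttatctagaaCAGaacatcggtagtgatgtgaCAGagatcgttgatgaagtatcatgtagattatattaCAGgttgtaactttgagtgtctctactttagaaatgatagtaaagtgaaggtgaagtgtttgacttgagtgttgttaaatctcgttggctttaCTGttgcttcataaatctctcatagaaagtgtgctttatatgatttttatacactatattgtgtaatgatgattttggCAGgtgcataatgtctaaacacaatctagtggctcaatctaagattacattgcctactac
AT5G34830: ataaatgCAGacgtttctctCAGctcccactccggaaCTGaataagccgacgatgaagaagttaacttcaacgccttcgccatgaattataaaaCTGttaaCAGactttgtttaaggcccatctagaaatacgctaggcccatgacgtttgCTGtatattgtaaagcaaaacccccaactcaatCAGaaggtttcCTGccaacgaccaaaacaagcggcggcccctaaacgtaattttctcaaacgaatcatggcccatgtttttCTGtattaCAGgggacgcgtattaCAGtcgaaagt

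The region of AT5G34830 held 11 CAG or CTG sites and 16 CG dinucleotides, that of AT5G35050 held 5 and 3, and that of AT5G28810 held 2 and 6. Over 27431 protein-coding genes the median was 4 CAG or CTG sites and 6 CG dinucleotides, and 97.0% of the regions held at least 1 CAG or CTG. The count of AT5G34830 exceeded that of 98.5% of all genes. Members without any count and tested members had the same median of 4 CAG or CTG sites. The letters show where such cytosines stand, not whether they are methylated, which was not measured here. The gene start of AT5G34830 is that of its coding part, since no untranslated part is annotated.

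Of the 150 genes, 54 (36%) passed the filter on low counts and were tested, and 20 had some counts but too few. At an adjusted p under 0.05, 13 of the 54 were called different between the genotypes (24.1%). In the same fit 28.2% of all 18498 tested genes and TEs were called. Higher in ddcc were 6 genes and lower 7, against 15.5% and 12.7% of all tested features. Changes were small: called genes ran from −1.45 to 0.55 on the log2 scale, and only LSH1 exceeded 1 in size (1.85% of the tested members, against 4.56% of all features). The median log2 fold change of the tested members was −0.03, and that of all tested features −0.0034. The CPM values of the genotypes did not overlap for 19 of the 54 (35.2%), against 43.5% of all tested features. In whole leaves, fewer cells of a type and less RNA per cell cannot be told apart in any of these values.

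**Figure D4:**
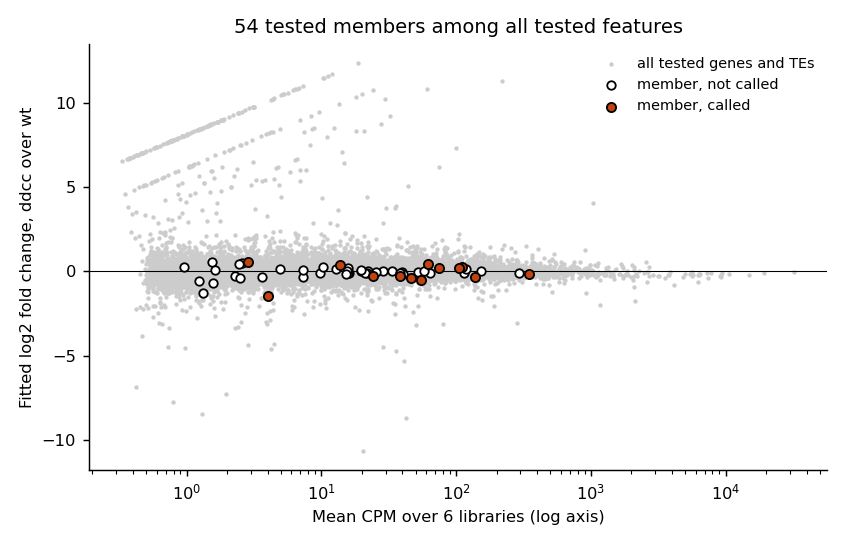
Fitted log2 fold change of ddcc over wild type against the mean CPM over 6 libraries, on a log axis, for all tested genes and TEs (grey), for the 41 tested members without a call (open) and for the 13 called members (filled). The members lie between −1.45 and 0.55, near the line at 0, where most features stand.

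LSH1 (AT5G28490, 10454388 to 10455681, minus strand) encodes a protein of the ALOG family of transcription regulators and is named for the light-dependent short hypocotyls of plants with extra LSH1. Its level was 2.24, 2.52 and 1.71 CPM in ddcc and 4.96, 5.73 and 7.10 CPM in wild type. The groups did not overlap. The means were 2.16 ± 0.409 CPM in ddcc and 5.93 ± 1.08 CPM in wild type (SD, n = 3 each), and the fitted log2 difference was −1.45 with an SE of 0.19 (edgeR adjusted p 3.32e-04). The call held in all 12 alternative fits, with log2 fold changes from −1.57 to −1.31. Its start region, shown as that of the gene with the largest change, lies on chr5:10455632-10455931 (minus strand) and held 3 CAG or CTG sites and 3 CG dinucleotides. The region takes in all of AT5G28491 (10455682 to 10455807, same strand), an uncharacterized member without a count that directly adjoins LSH1. Part of the bases before the LSH1 start is thus annotated as coding sequence of that neighbour.
LSH1: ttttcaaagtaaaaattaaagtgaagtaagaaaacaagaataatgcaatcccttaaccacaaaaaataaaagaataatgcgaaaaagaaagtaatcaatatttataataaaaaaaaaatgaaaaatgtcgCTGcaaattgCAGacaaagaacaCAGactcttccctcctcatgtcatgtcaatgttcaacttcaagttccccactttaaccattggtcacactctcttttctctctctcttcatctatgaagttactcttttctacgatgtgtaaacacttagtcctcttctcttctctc

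The next tested gene, AT5G28500, lies 21.9 kb away. It encodes a rubisco accumulation factor, which helps assemble the carbon-fixing enzyme in chloroplasts, and was lower as well. This was the only pair of neighbouring tested genes called in the same direction. The other neighbouring pair of called genes, RPS1 and AT5G32440, is separated by 455 kb and moved in opposite directions.

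Genes for chloroplast proteins made up a list of 8, all tested, of which 4 were lower in ddcc and none was higher, while 12.7% of all tested features were lower and 15.5% higher. Their median log2 fold change was −0.23, and that of all tested features −0.0034. All tested features include many with far fewer counts than the called chloroplast genes. Small changes are harder to call in those, so the shares are not like for like. The role lists were drawn up by hand with results of these data known, and may leave out other members with such roles. AT5G28750, a TatA-like component of the thylakoid protein translocase, had 39.3, 42.3 and 37.1 CPM in ddcc and 49.8, 53.3 and 54.9 CPM in wild type (log2 fold change −0.41, SE 0.07, edgeR adjusted p 0.00119). AT5G28500 had 123, 134 and 109 CPM in ddcc and 153, 161 and 147 CPM in wild type (−0.33, SE 0.07, edgeR adjusted p 0.00666). The groups did not overlap for either gene. EGY1, a membrane metalloprotease needed for chloroplast development, had 22.1, 22.02 and 21.4 CPM in ddcc and 25.8, 27.4 and 26.5 CPM in wild type (−0.28, SE 0.06, edgeR adjusted p 0.00727).

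RPS1, the plastid ribosomal protein S1, had 324, 333 and 317 CPM in ddcc and 366, 381 and 354 CPM in wild type (−0.18, SE 0.05, edgeR adjusted p 0.0215). This call was lost without ddcc replicate 1 or 3 and without wild-type replicate 1 or 2 (edgeR adjusted p 0.0540 to 0.0867). The other 4 chloroplast genes were not called. They were CUE1, a phosphoenolpyruvate transporter of the plastid envelope (−0.17, edgeR adjusted p 0.0690), the adenylate kinase family gene AT5G35170 (−0.10), PTM, a PHD-type transcription factor with membrane spans (0.12), and the low-expressed chlorophyll-binding family gene AT5G28450 (−0.58, edgeR adjusted p 0.135), which shares 39.2% of its exon words with AT3G61470. Of the 4 leaf markers on other parts of the genome, LHCA1 and RBCS1A were also lower in ddcc, with log2 fold changes of −0.32 and −0.19 (edgeR adjusted p 0.00198 and 0.0342). Their part in the result was not tested.

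Among 10 transcription regulators 7 were tested, and besides LSH1 only AT5G28300, a trihelix gene related to GT-2, was called, both lower, as were 12.7% of all tested features. It had 33.4, 33.1 and 36.2 CPM in ddcc and 44.3, 39.4 and 41.8 CPM in wild type, without overlap (−0.29, SE 0.07, edgeR adjusted p 0.00893). FRS10, a FAR1-related gene, had a log2 fold change of −0.32 and missed the threshold (edgeR adjusted p 0.0668). AN3, a coactivator that promotes cell proliferation in leaves, PHL1, a regulator of the phosphate starvation response, the bZIP gene BZO2H3 and the storekeeper-related AT5G28040 had log2 fold changes of −0.30, 0.05, −0.03 and 0.00. SRS8 and the B3 gene AT5G32460 had no count, and WRKY74 had at most 4 counts in a library.

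Metabolic enzymes made up a list of 6, all tested, of which 2 were higher in ddcc, as were 15.5% of all tested features. DES1, which breaks down cysteine and releases sulfide, had 18.1, 15.04 and 13.9 CPM in ddcc and 12.0, 11.5 and 12.7 CPM in wild type (0.38, SE 0.11, edgeR adjusted p 0.0227). The highest value was that of ddcc replicate 1. Without ddcc replicate 1, wild-type replicate 1 or wild-type replicate 2 the call was lost (edgeR adjusted p 0.0639 to 0.0820), and leaving out ddcc replicate 1 lowered the log2 fold change to 0.26. CYSD2, a cysteine synthase gene next to DES1, had a log2 fold change of −0.12 and was not called. AT5G28050, a deaminase family gene, had 77.2, 79.9 and 80.4 CPM in ddcc and 73.0, 69.6 and 68.1 CPM in wild type (0.17, SE 0.05, edgeR adjusted p 0.0316). Its call was lost in 6 of 12 alternative fits: DESeq2, the replicate block, and without ddcc replicate 2 or 3 or wild-type replicate 2 or 3 (adjusted p 0.0501 to 0.122).

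The pyridoxal phosphate enzyme gene AT5G28237 showed how far replicates can differ. It had 0.208, 1.37 and 0.749 CPM in ddcc and 2.57, 0.739 and 2.37 CPM in wild type. The groups overlapped, and a log2 fold change of −1.30 (SE 0.55) was not called (edgeR adjusted p 0.103). With every counted feature tested it was called lower (edgeR adjusted p 0.0353).

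Of 5 genes for cell wall and cuticle, 3 were tested and 1, GME, was higher, against 15.5% of all tested features. GME, which makes GDP-galactose for vitamin C and cell wall synthesis, had 127, 114 and 121 CPM in ddcc and 104, 99.6 and 95.9 CPM in wild type, without overlap (0.27, SE 0.06, edgeR adjusted p 0.00529). XGD1, a xylosyltransferase for pectin, and GUS3, annotated as glucuronidase 3, had log2 fold changes of −0.14 and −0.34 and were not called. The extensin gene EXT13 had no count, and the lipase family gene AT5G33370 had 3, 3 and 0 counts in ddcc and 7, 4 and 1 in wild type.

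Of 5 genes for the endoplasmic reticulum, vacuole and secretion, all tested, 1, BIP1, was lower, against 12.7% of all tested features. BIP1, an Hsp70 chaperone of the endoplasmic reticulum, had 41.1, 52.6 and 42.5 CPM in ddcc and 60.1, 62.5 and 72.9 CPM in wild type (−0.52, SE 0.10, edgeR adjusted p 0.00323). It shares 34.7% of its exon words with BIP2, on the same chromosome outside the interval. BIP2 had 34.6 ± 4.38 CPM in ddcc and 47.6 ± 6.04 CPM in wild type (SD, n = 3 each). It was called lower as well (log2 fold change −0.46, edgeR adjusted p 0.00894). The division of reads between both genes is uncertain. The vacuolar phosphatase gene PAP26, the lectin gene OS9, the cyclophilin gene AT5G35100 and the endomembrane gene AT5G35160 had log2 fold changes between −0.13 and 0.06 and were not called. The annotated product of AT5G35100 names no compartment, so its place in this list is uncertain.

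The other 3 called genes are in none of the role lists and were named after their values were seen. AT5G35200, an ANTH-domain gene of a family that links clathrin to membranes, had the smallest p of all members. It had 69.8, 73.0 and 72.4 CPM in ddcc and 51.6, 54.2 and 53.2 CPM in wild type, so the groups stood far apart against their spread (0.44, SE 0.05, edgeR adjusted p 1.64e-04). All 12 alternative fits gave the call, with log2 fold changes from 0.42 to 0.47. AT5G32440, annotated as a CUE-domain component of the ubiquitin system, had 111, 113 and 116 CPM in ddcc and 101, 94.1 and 97.6 CPM in wild type (0.21, SE 0.05, edgeR adjusted p 0.0108). The start region of AT5G35200, shown as that of the most firmly raised gene, lies on chr5:13466101-13466400 (minus strand) and held 6 CAG or CTG sites and 6 CG dinucleotides.
AT5G35200: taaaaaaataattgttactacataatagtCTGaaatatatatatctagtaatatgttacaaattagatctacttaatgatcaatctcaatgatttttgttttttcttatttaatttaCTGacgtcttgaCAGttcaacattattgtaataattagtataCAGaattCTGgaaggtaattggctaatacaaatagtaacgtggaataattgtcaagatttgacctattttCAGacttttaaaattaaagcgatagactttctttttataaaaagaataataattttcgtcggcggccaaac

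The RNA-binding family gene AT5G28390 had 3.44, 3.15 and 3.64 CPM in ddcc and 2.33, 2.65 and 1.97 CPM in wild type (0.55, SE 0.17, edgeR adjusted p 0.0371). It shares 71.2% of its exon words with the pseudogene AT5G28330, which had 6.93 ± 0.896 CPM in ddcc and 5.61 ± 1.12 CPM in wild type (SD, n = 3 each). Its call was lost in 6 of 12 alternative fits: DESeq2, the replicate block, and without ddcc replicate 1 or 3 or wild-type replicate 1 or 3 (adjusted p 0.0700 to 0.146).

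**Figure D5:**
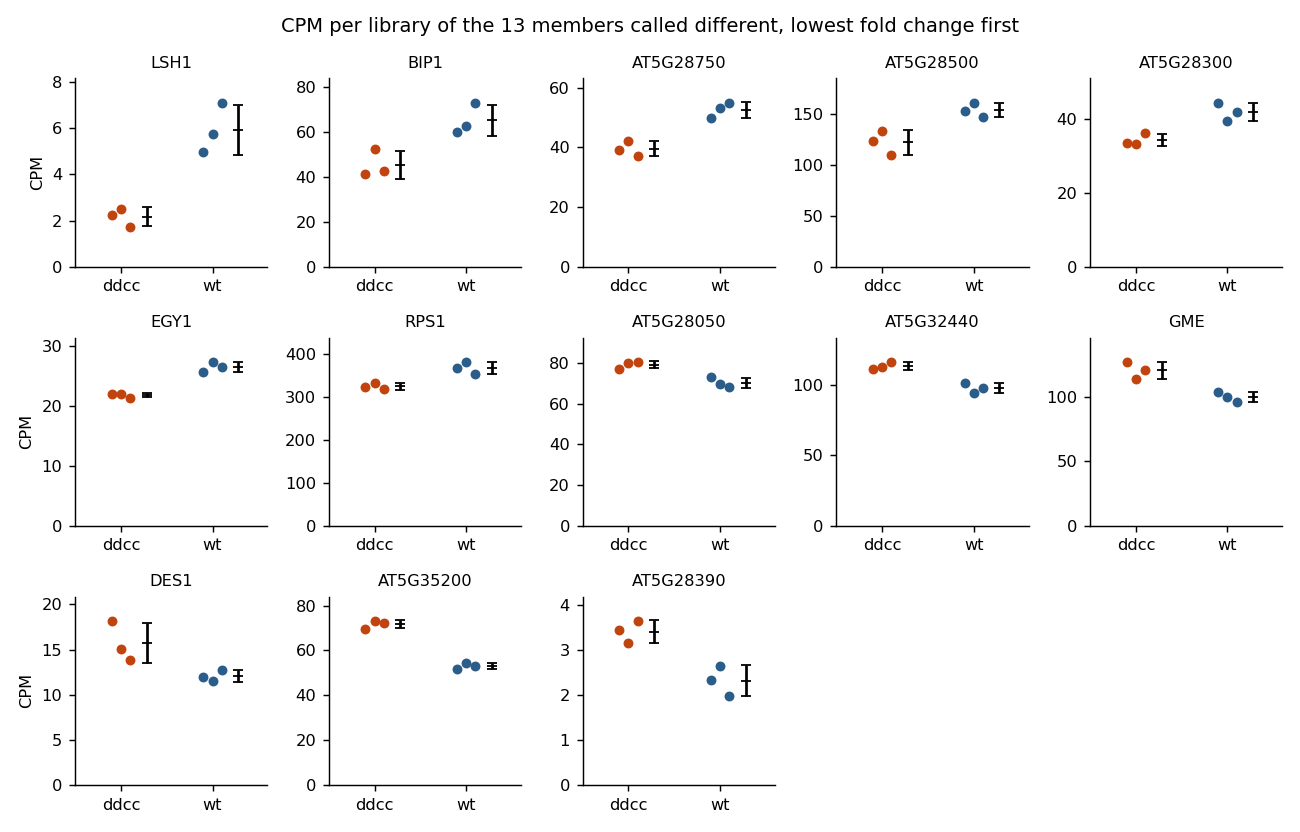
CPM in each library of the 13 genes called different, with ddcc to the left of wild type and the mean ± SD (n = 3) beside the points; the axes start at 0. LSH1 shows the widest gap, at 1.71 to 2.52 CPM in ddcc and 4.96 to 7.10 CPM in wild type, while RPS1 at 317 to 333 CPM in ddcc and 354 to 381 CPM in wild type differs by little of its level.

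A small number of genes held much of the interval's reads. The members took 0.248%, 0.244% and 0.241% of all counts in the ddcc libraries and 0.244%, 0.247% and 0.248% in the wild-type libraries. The means of 0.244% ± 0.00363 in ddcc and 0.246% ± 0.00196 in wild type (SD, n = 3 each) differed by −0.0021 percentage points, ddcc minus wild type, and the groups overlapped (exact two-sided permutation p 0.7). As shares of TMM-scaled totals the groups did not overlap, at 0.241% to 0.243% in ddcc and 0.247% to 0.251% in wild type, a difference of −0.0079 percentage points (exact permutation p 0.1, the smallest possible). Without the 5 genes with the most counts the difference turned to 0.0038 percentage points higher in ddcc (exact permutation p 0.1). RPS1 alone held 14.1% of the members' counts, and 5 genes (RPS1, AT5G35170, PAP26, AT5G28500 and PTM) held 42.7%.

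Per kb of exon, the level of RPS1 was 204 ± 4.76 CPM in ddcc and 231 ± 8.39 CPM in wild type. It was followed by AT5G28060, a ribosomal protein S24e gene, at 140 ± 4.43 CPM per kb in ddcc and 128 ± 11.7 in wild type, and AT5G35170, at 116 ± 8.26 CPM per kb in ddcc and 124 ± 4.34 in wild type (SD, n = 3 each). AT5G32440, AT5G28500, AT5G28750, GME, PAP26, AT5G28050 and AT5G35100 completed the 10 highest, in this order of their mean over both genotypes, at 47.3 to 86.9 CPM per kb in ddcc and 50.3 to 84.1 in wild type. Of these 10 genes 3 were lower in ddcc, 3 were higher and 4 were not called, while 12.7% of all tested features were lower and 15.5% higher. Those features include many with far fewer counts, in which small changes are harder to call, so the shares are not like for like. Over the tested members the median level was 9.95 CPM per kb in ddcc and 9.55 in wild type, and over the other tested Araport11 entries it was 8.12 in ddcc and 8.04 in wild type. Among the 50 entries of the range without the suffix, 42 were silent in wild type and 3 were tested, of which AT5G28262, a non-coding RNA, was higher in ddcc (log2 fold change 0.69, edgeR adjusted p 0.0350) and AT5G34795 lower.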

How the data were processed

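For 6 polyadenylated leaf libraries the authors deposited raw counts per gene and transposable element, with no normalization. Per the submitters' processing notes, Trim Galore 0.6.0, cutadapt 1.15, STAR 2.7.0f and the TAIR10 build were used; which program counted reads, whether it used strand and how it treated multiply mapping reads are not given in the sources used here. Genotype, replicate number and columns were matched by title, and 0 columns were left unmatched. A batch table for moss libraries was not used.

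All genes and TEs were fitted together in R 4.3.3 with edgeR 4.0.16: filterByExpr with a minimum count of 10, TMM scaling, a quasi-likelihood test of genotype, and Benjamini-Hochberg adjustment over all tested features, where an adjusted p under 0.05 is a call. Single adjusted p-values come from this fit unless another tool or setting is named. The SE is the absolute log2 fold change over the square root of F. CPM uses TMM-scaled totals, and CPM per kb divides by exon length. DESeq2 1.42.0 was an alternative. Replicates of a genotype differed by more than sampling noise (chi-square per degree of freedom 3.32 or more), and deviations of same-numbered libraries did not correlate above 0.1 (−0.104, −0.0775 and 0.0262), so the numbers were not taken to pair libraries.

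Coordinates, products, exon models and sequences come from the RefSeq annotation of TAIR10.1, matched by locus tag for all 150 members; a word counts as repeated where its 31 bases occur more than once in that genome on either strand. The members, role lists and tests were chosen with earlier results of these data known. By rule the text names called members whose log2 fold change reached 1 in either direction, members at 0 counts in 1 genotype with at least 5 counts in every library of the other, the 10 highest levels per kb, called role list members and the mutated genes.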

Additional observations from a re-analysis of the deposited data

How the results depend on the processing

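The numbers of silent genes moved little. They ran from 70 to 90 in ddcc and from 71 to 90 in wild type over all settings, with 80 in each after thinning the libraries to the smallest total and 90 in each with up to 3 counts allowed; leaving out a library gave 79 to 83 in ddcc and 81 to 83 in wild type. Leaving out genes with repeated exon words, chosen after the data were seen, gave 70 in ddcc and 71 in wild type. Alternative fits at the same threshold called 4 to 8 genes higher and 6 to 9 lower, and leaving out a library gave 4 to 5 and 6 to 8. At an adjusted p under 0.01, 2 genes were higher and 6 lower, and at 0.05 with a log2 fold change reaching 1 in size 0 were higher and 1 lower. With the replicate block 4 were higher and 7 lower, DES1 was still called, and AT5G28050 and AT5G28390 were not. The median log2 fold change of tested members was 0.0013 with library totals alone and −0.055 with no filter beyond 1 count, and −0.048 to −0.013 without single libraries. The difference in detected genes ran from −1.17 to 0.833 without single libraries. The difference in the share of counts, ddcc minus wild type, was −0.0039 to −0.00031 percentage points without single libraries. It turned to 0.0038 without the 5 genes with the most counts (exact permutation p 0.1), and was −0.0079 on TMM-scaled totals (exact permutation p 0.1, the smallest possible in both); the cause was not tested. PAP26, which was not called, had log2 fold changes of −0.018 to 0.044 when single libraries were left out, below 0 without wild-type replicate 2 (−0.00030) and without ddcc replicate 1 (−0.018). The ribosomal protein gene AT5G28060 was called only without wild-type replicate 2 (log2 fold change 0.20, edgeR adjusted p 0.0364). At this depth, differences below 3 counts per library, such as those of AT5G28090 and AT5G28560, were not detectable.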
